A study of Mus musculus with 22 samples.

Results

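The step from early-G1 to mid-G1 was followed in auxin-treated G1E-ER4 cells, that is, in newly divided erythroblasts from which CTCF had been removed before they left mitosis. It was taken from 5 of the 22 in situ Hi-C libraries of the series, 2 of early-G1 +auxin and 3 of mid-G1 +auxin cells, and it covers all 16370 loops and all 6376 domain boundaries of the union lists, of which 16369 loops and 6375 boundaries have a value above 0 in both maps. The G1E-ER4 line descends from G1E, a mouse proerythroblast line without GATA1. Both CTCF alleles of the cells are fused to an auxin-inducible degron and mCherry, and the plant F-box protein OsTiR, delivered with GFP on a retrovirus, lets auxin trigger degradation of the fusion. All groups share the tagged CTCF alleles, an OsTiR construct (of another version in ana/telophase cells, given below) and an arrest in nocodazole at 200 ng/ml. The +auxin cells received 1 mM auxin in the final hours of the arrest and after the release, and were sorted at 60 min (early-G1) or 120 min (mid-G1) for the DNA content of G1 cells and, according to the methods, for loss of mCherry. The -auxin cells of the same stages (2 and 3 libraries) went through the same arrest and release without auxin. The cells are a cultured line released from drug arrest, and for the tables used here the libraries of a stage were merged by the authors into 1 map, so each loop or boundary has 1 value per stage and treatment. Maps of single libraries were not analysed here, so no test between stages was made and no p-value is given. Many median changes are instead accompanied by the SD of the medians of the single chromosomes. This SD describes how even a shift was along the genome and not how it would vary between cultures.

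CTCF is a zinc finger protein that binds a directional DNA motif and halts the loop-extruding cohesin ring, so that pairs of motifs pointing at each other become anchors of structural loops and of insulated domain boundaries. Enhancers and promoters, the cis-regulatory elements (CREs), also contact each other, with or without CTCF at the anchors. During mitosis loops and boundaries are largely lost, and they are rebuilt as cells pass through telophase into G1. The loops fall into 4 deposited categories, made from ChIP-seq peaks and CREs at the anchors and not from loop strength. Structural loops (4837) have CTCF with cohesin at both anchors and CREs at no more than 1 of them. Dual-function loops (3370) have both CTCF with cohesin and CREs at both anchors. CRE loops (4642) join CREs and lack CTCF with cohesin at 1 anchor or at both. The remaining 3521 loops are uncategorised. Many loops are not independent of each other, since 71.4% share the bin of an anchor with another loop, from 55.0% of the uncategorised to 82.8% of the dual-function loops.

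The label of the treatment was checked on the structural loops, whose strength depends on CTCF. Loop strength is a ratio, the contacts observed at a loop over those expected from its surroundings. The median strength of structural loops with auxin was 1.23 at the early and 1.28 at the later stage, against 2.03 and 2.32 without. Both +auxin medians lay below both -auxin medians. CTCF itself is not measured in the tables used.

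The letters at the anchors show where CTCF could have bound. The core CNAGGGGGC of the CTCF motif was searched on both strands of the mm9 (NCBIM37) genome in windows of 30 kb around each anchor midpoint. It was present in 54.0% of the windows of structural loops, 58.7% of dual-function, 47.3% of CRE and 43.7% of uncategorised loops, against 31.7% of all windows of this length in the genome. Matches that point into the loop at both anchors were found in 13.1% of structural, 16.4% of dual-function, 8.72% of CRE and 7.55% of uncategorised loops. This short core misses many CTCF sites, so its absence from a window says nothing about binding there. The stretches below belong to 2 of the structural loops that changed most between early-G1 and mid-G1 with auxin and are described further on, and they are shown because structural loops are the category defined by CTCF at both anchors. Capitals mark the core, with 10 bases on either side, written 5′ to 3′ on the strand that reads CNAGGGGGC. The first lies on the minus strand at chr5:65255816-65255844, 830 bases from the midpoint of the left anchor of the loop that rose most, and points out of that loop. The next pair belongs to the loop on chromosome 14 that fell most. They lie on the minus strand at chr14:115195807-115195835, which points outward and is 9179 bases from the midpoint of the left anchor, outside its 10 kb bin, and at chr14:115441438-115441466, inside the right anchor and pointing inward. The right window holds 2 more cores that are not shown, 1 pointing inward and 1 on the plus strand pointing outward.
Rising structural loop, left anchor: aaagtaagccCCAGGGGGCttcgtgagag
Falling structural loop of chromosome 14, beside the left anchor: gcagaacttaCCAGGGGGCagctatacca
Falling structural loop of chromosome 14, right anchor: cgcgcggccgCCAGGGGGCggcaggtcag

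Across all loops, median strength hardly moved between early-G1 and mid-G1 once CTCF was gone. The median log2(mid-G1 / early-G1) was -0.0098 with auxin (SD over 20 chromosomes 0.012), and 4 of 20 chromosomes had a median above 0. The same step without auxin had a median of 0.063 (SD 0.015), above 0 on 20 of 20 chromosomes. The medians of the strengths themselves were 1.42 in both +auxin maps, and the means were 1.54 and 1.53, so the sign of the overall change depends on the summary. Of all loops 71.1% were not called in any +auxin map by the authors, and over the 4736 that were, the median log2 change was -0.079. The step before it, from ana/telophase to early-G1, had a median log2 change of 0.126 with auxin (SD 0.016). This earlier step shares the early-G1 map, and the ana/telophase cells carried the construct OsTiR-IRES-GFP-MD in place of OsTiR-IRES-GFP, so both values are only set side by side.

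The near-zero median hid movements of single loops in both directions. A loop is called stronger here when its strength in mid-G1 was at least 25% above that in early-G1, and weaker when it was at least 20% below, which is the same fold in both directions. With auxin 1431 of 16369 loops (8.74%) were stronger in mid-G1 and 1361 (8.31%) were weaker. Without auxin 13.7% of the loops were stronger and 4.87% weaker. These shares are the background for the counts below. Of the loops stronger with auxin, 31.6% were stronger without auxin too, and these made up 20.2% of the loops stronger without auxin. Of the loops weaker with auxin, 13.6% were weaker without auxin and 14.9% were stronger. Across the 16369 loops with both values, the log2 changes of the 2 treatments had a Spearman correlation of 0.25. The 4 maps share no library, but they share the loop list, the genome positions and the expected-contact model, and the correlation is given as a description.

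Structural loops, which join CTCF sites, had the highest median change of the 4 categories. Their median log2 change with auxin was 0.043 (SD 0.022, n = 4837), above 0 on 20 of 20 chromosomes, with single chromosomes between 0.0039 and 0.088. The direction rests on loops not called in any +auxin map, which are 94.6% of the category, and over the 259 structural loops called in a +auxin map the median was -0.014. Without auxin the same loops gained 0.182 (SD 0.034). Taken loop by loop, the change with auxin was lower by a median of -0.125 on the log2 scale than that without (SD 0.043), and the difference was below 0 on 20 of 20 chromosomes. In counts, 13.1% of structural loops were stronger in mid-G1 with auxin (95% Wilson interval 12.2 to 14.1%) and 6.72% were weaker (6.05 to 7.46%). Without auxin 26.6% were stronger and 0.972% weaker. The Wilson intervals cover counting error only. Of the 325 structural loops weaker with auxin, 131 (40.3%) were stronger without auxin, against 26.6% of all structural loops. Of the 636 stronger with auxin, 266 (41.8%) were also stronger without. Within this category the changes of the 2 treatments had a Spearman correlation of 0.089.

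CRE loops, which join enhancers and promoters, shifted the other way. Their median strength went from 1.67 in early-G1 to 1.60 in mid-G1 with auxin. The median log2 change was -0.067 (SD 0.021, n = 4642), and it was below 0 on 20 of 20 chromosomes, from -0.099 to -0.036. The fall differed with calling. CRE loops not called in any +auxin map (44.5%) changed by only -0.029 (SD 0.026), above 0 on 3 of 20 chromosomes. Those first called in early-G1 with auxin (30.1%) changed by -0.131, as choosing them by that map implies. Without auxin the median change of all CRE loops was -0.040 (SD 0.024), above 0 on 1 chromosome only. With auxin 11.2% of CRE loops were weaker (10.3 to 12.1%) and 4.50% stronger (3.94 to 5.14%), against 9.52% and 4.70% without auxin. The loop-by-loop difference between treatments had a median of -0.022 (SD 0.022), below 0 on 18 chromosomes. That difference is as large as its spread over chromosomes.

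Dual-function loops, which carry CTCF and CREs at both ends, lay between these. Their median log2 change was -0.039 with auxin (SD 0.037), above 0 on 2 of 20 chromosomes, and 0.019 without (SD 0.022), above 0 on 15. Over those called in a +auxin map it was -0.094 with auxin, and over those first called in early-G1 it was -0.131, as that choice implies. Over the 67.1% not called in any +auxin map it was -0.010 (SD 0.037), above 0 on 7 of 20 chromosomes. Of all dual-function loops 8.81% were weaker with auxin (7.90 to 9.82%) and 5.64% stronger (4.91 to 6.47%). Uncategorised loops resembled structural loops in direction. Their median log2 change was 0.032 with auxin (SD 0.026, above 0 on 17 chromosomes) and 0.092 without (SD 0.024), with 11.25% stronger and 6.25% weaker with auxin. Here too the direction turned, to -0.015, over loops called in a +auxin map, and 77.6% of uncategorised loops were not called in any.

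**Figure D1:**
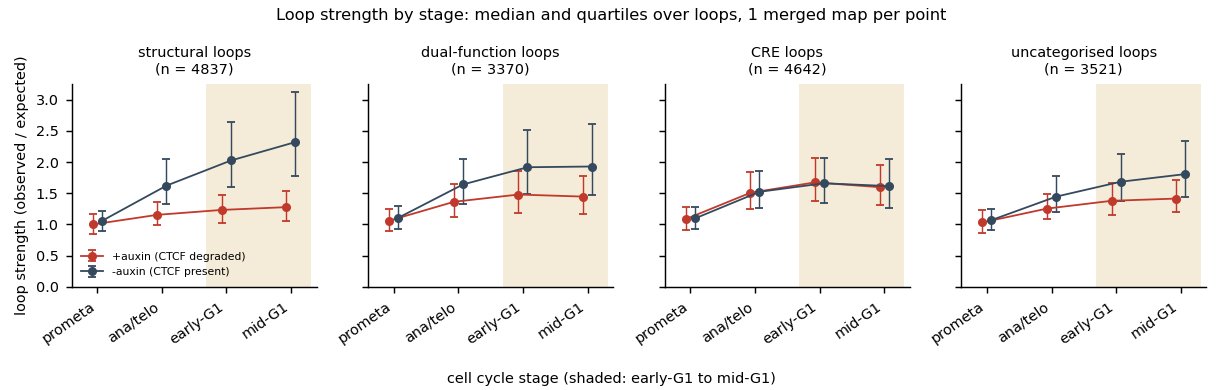
Median loop strength (observed over expected contacts, y axis) in the 4 cell cycle stages (x axis) for each category, with auxin in red and without in dark blue. Bars span the quartiles over loops, and each point comes from 1 merged map. In the shaded step structural loops go from 1.23 to 1.28 with auxin and from 2.03 to 2.32 without, while CRE loops decline under both treatments.

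**Figure D2:**
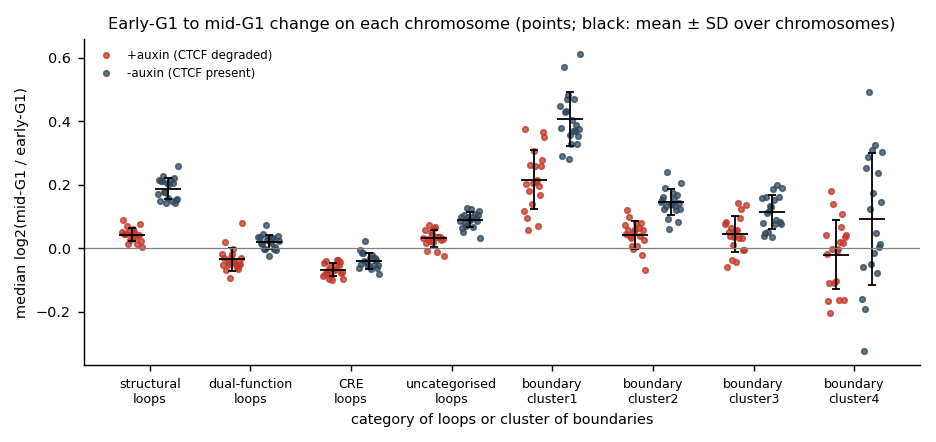
Median log2(mid-G1 / early-G1) on each chromosome (points) by loop category and by boundary cluster, with auxin in red and without in dark blue. Black lines give the mean and SD over chromosomes. All 20 +auxin chromosome medians are above 0 for structural loops and below 0 for CRE loops.

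How far each category had come by early-G1 was read from the mean strengths as the share of the rise from prometaphase to mid-G1. With auxin, structural loops had made 83.7% of their rise by early-G1 (SD over chromosomes 6.04), and 74.9% without auxin (SD 3.304). The rises differ in size, from a mean of 1.02 to 1.33 with auxin and from 1.08 to 2.62 without. CRE loops had reached 114% of their mid-G1 rise (SD 5.33), above 100% on 20 of 20 chromosomes, because their mean went from 1.133 in prometaphase to 1.78 in early-G1 and back to 1.698. Without auxin they had reached 105% (SD 6.00), above 100% on 17 chromosomes. Dual-function loops stood at 109% with auxin (SD 6.41) and 94.2% without (SD 3.19). Uncategorised loops stood at 88.7% (SD 10.7) and 81.6% (SD 3.59). All loops together stood at 101% with auxin (SD 4.11) and 85.3% without (SD 2.05).

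The size of a loop, the distance between its anchors, went only weakly with the change with auxin. Structural loops of up to 200 kb (2029) had a median log2 change of 0.027 with auxin (SD 0.037), those over 200 to 500 kb (1804) 0.048 (SD 0.035), and those over 500 kb (1004) 0.078 (SD 0.069). These SDs are about as large as the medians. Without auxin the same classes gained 0.147, 0.178 and 0.289. The spread of single loops also grew with size. Of the structural loops over 500 kb, 22.4% were stronger with auxin (19.9 to 25.1%) and 10.1% weaker (8.35 to 12.1%), compared with 7.24% and 4.04% in the shortest class. In finer bins, structural loops of up to 100 kb changed by 0.011 (SD 0.049) and those over 1000 to 2000 kb by 0.106 (SD 0.109). The Spearman correlation of size and change over the 4837 loops was 0.072 with auxin and 0.235 without. It was 0.068 and 0.155 for uncategorised, 0.018 and 0.067 for CRE and -0.018 and -0.0049 for dual-function loops. Over loops called in a +auxin map the shortest structural loops had a median change of -0.059, opposite in sign to that of the whole class.

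For CRE loops the fall was present in every size class, with medians of -0.066 up to 200 kb (SD 0.021), -0.089 over 200 to 500 kb (SD 0.035) and -0.035 over 500 kb (SD 0.070). The last does not exceed its spread. Without auxin the longest CRE loops had a median change of 0.0078 (SD 0.059). In the middle class 13.9% of CRE loops were weaker with auxin and 4.54% stronger. Dual-function loops had medians of -0.031 (SD 0.032), -0.062 (SD 0.050) and -0.024 (SD 0.092) in the same order. In the longest class of dual-function loops the median strength was 1.78 in early-G1 and 1.79 in mid-G1, so the sign there depends on the summary. Over those called in a +auxin map the values were -0.066, -0.142 and -0.122. Uncategorised loops changed by 0.028, 0.042 and 0.033. The first was -0.031 over loops called in a +auxin map, and the last was 0.120 over loops with a 10 kb summit.

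**Figure D3:**
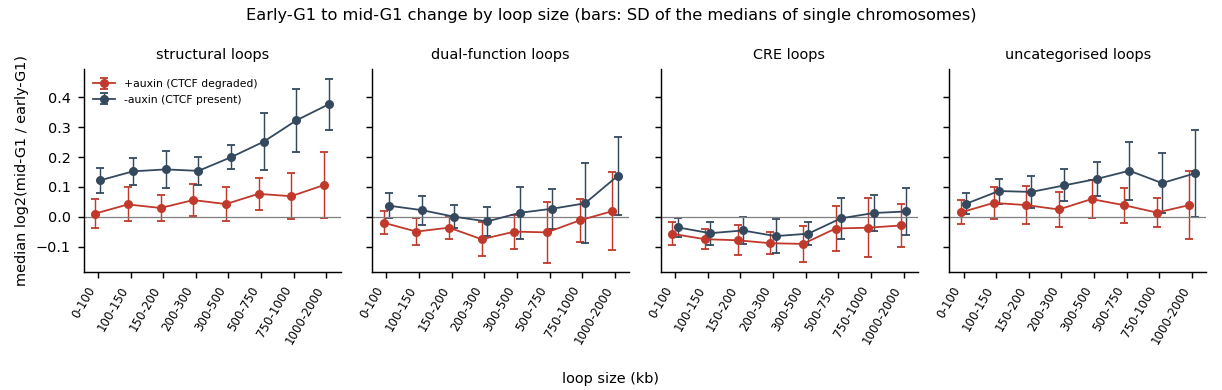
Median log2(mid-G1 / early-G1) (y axis) against loop size in kb (x axis) for the 4 categories, with auxin in red and without in dark blue. Bars are SDs of the medians of single chromosomes with at least 10 loops in the bin. For structural loops the +auxin medians lie between 0.011 and 0.106, the lowest in the shortest and the highest in the longest bin, and below the -auxin medians in every bin.

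Transcription starts at the anchors, which the categories do not use directly, went with the fall of the CRE loops. CRE loops with no start of a protein-coding gene within 15 kb of either anchor midpoint changed by -0.030 with auxin (SD 0.062, n = 538). Those with a start at 1 anchor changed by -0.048 (SD 0.034, n = 1580), and those with a start at both anchors by -0.091 (SD 0.029, n = 2524), below 0 on 20 of 20 chromosomes. The first and the last of these differ by no more than the wider SD. Without auxin the medians in the same order were 0.0012, -0.014 and -0.063. Dual-function loops followed the same order, at 0.0035 (SD 0.062), -0.016 (SD 0.051) and -0.062 (SD 0.036). In structural loops the 3 medians were 0.042, 0.050 and 0.032, within 1 SD of each other. CRE loops crossed by a structural loop, meaning that 1 anchor of a structural loop lies inside and the other outside, changed by -0.082 with auxin (SD 0.031, n = 2227) and by -0.069 without. Those not crossed changed by -0.055 (SD 0.032, n = 2415) and -0.018. Of crossed CRE loops 12.8% were weaker with auxin (11.5 to 14.3%), against 9.65% of the others (8.53 to 10.9%).

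The motif core made little difference to the step. Structural loops with cores pointing into the loop at both anchors changed by 0.063 with auxin (SD 0.068, n = 635), those with cores at both anchors in other orientations by 0.041 (SD 0.033), and those lacking a core at an anchor by 0.042 (SD 0.030). The 3 values lie within 1 SD of each other. CRE loops in the same order changed by -0.060, -0.072 and -0.067.

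Within each category, the loops that end up strongest when CTCF is present had a higher median change with auxin than the weakest. Structural loops were ordered by their strength in the mid-G1 -auxin map, which plays no part in the +auxin change. The weakest 20%, up to a strength of 1.68, changed by 0.015 with auxin (SD 0.024), the middle 20% by 0.052 (SD 0.049), and the strongest 20%, from 3.38 upward, by 0.087 (SD 0.066). Among the strongest 24.1% of loops were stronger with auxin and 12.3% weaker, so that loops moved more in both directions there. Uncategorised loops ordered in the same way changed by -0.023 (SD 0.037) for the weakest 20% and 0.095 (SD 0.072) for the strongest, and dual-function loops by -0.093 (SD 0.046) and 0.0099 (SD 0.062). CRE loops changed by -0.107 (SD 0.042) for the weakest 20% and -0.027 (SD 0.057) for the strongest. The loop list joins calls with and without auxin, so loops weak without auxin could enter it through a +auxin map. In the weakest class of CRE loops the median early-G1 strength was 1.28 with auxin and 1.10 without. How far this entry lowers the change of the weakest classes was not tested. Over all loops the weakest 20% had a median of -0.069 (SD 0.022, 0 of 20 chromosomes above 0) and the strongest 0.056 (SD 0.036, 19 of 20). The categories are spread unevenly over these classes.

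The authors' labels of first detection give a second reading of the same maps, and are a description only since they rest on the same contacts. The calling rules also differ by stage. Loops recovered after the main calling had to pass in the merged map and every replicate in ana/telophase or early-G1. In mid-G1 a pass in all of them was not required, so the shares below rest in part on unlike thresholds. Of 4736 loops called in any +auxin map, 3828 were first called by early-G1 and 908 (19.2%, 18.1 to 20.3%) in mid-G1. Without auxin 5491 of 13984 (39.3%) were first called in mid-G1. Structural loops were seldom called with auxin. There were 259 of them, 73 (28.2%, 23.1 to 34.0%) first in mid-G1, against 2257 of 4765 (47.4%) without auxin. Of 2578 CRE loops called with auxin, 422 (16.4%, 15.0 to 17.8%) were first called in mid-G1. Loops first called in early-G1 had a median log2 change of -0.127 afterwards, and those first called in mid-G1 of 0.109, as the way they were chosen implies.

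Boundaries gained strength during this step under both treatments, and less with auxin. Boundary strength (ΔIS) is the depth of the local dip in the insulation score, and larger values mean fewer contacts across the boundary. The median ΔIS went from 0.305 in early-G1 to 0.332 in mid-G1 with auxin, and from 0.422 to 0.499 without. The median log2 change was 0.059 with auxin (SD 0.026), above 0 on 20 of 20 chromosomes, and 0.189 without (SD 0.045). Boundary by boundary, the change with auxin was lower by a median of -0.095 (SD 0.037, 20 of 20 chromosomes). With auxin 27.5% of 6375 boundaries were stronger by the same thresholds and 17.3% weaker, against 34.9% and 8.59% of 6376 without. Of the boundaries stronger with auxin, 54.6% were also stronger without. Of the 1103 weaker with auxin, 399 (36.2%) were stronger without, against 34.9% of all boundaries. By early-G1 boundaries had made 95.7% of their rise with auxin (SD 2.56) and 86.7% without (SD 2.52). Their step from ana/telophase to early-G1 with auxin had a median log2 change of 0.572 (SD 0.041).

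The deposited clusters of boundaries were built by k-means on these same 8 maps, so their values are given as a description. Cluster1 (1300), whose boundaries stay weak with auxin, went from a median ΔIS of 0.111 to 0.132 with auxin and from 0.301 to 0.422 without. Its median log2 change was 0.223 with auxin (SD 0.093), above 0 on 20 of 20 chromosomes, and 0.415 without. With 0.1 added to each ΔIS the value with auxin was 0.125. Cluster2 (2036) and cluster3 (1731) had most of the strength, with median ΔIS of 0.505 and 0.560 in mid-G1 with auxin. They changed by 0.044 (SD 0.043) and 0.040 (SD 0.057). Cluster4 (590), with boundaries stronger with auxin than without, changed by -0.0012 (SD 0.108), and cluster5 (719) by 0.017 (SD 0.164). The last 2 hold weak boundaries, and their spread exceeds the change many times. The paper describes cluster5 as mostly spurious and left it out of its analysis. Its members are kept here in the values over all boundaries and in the classes of boundary strength.

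**Figure D4:**
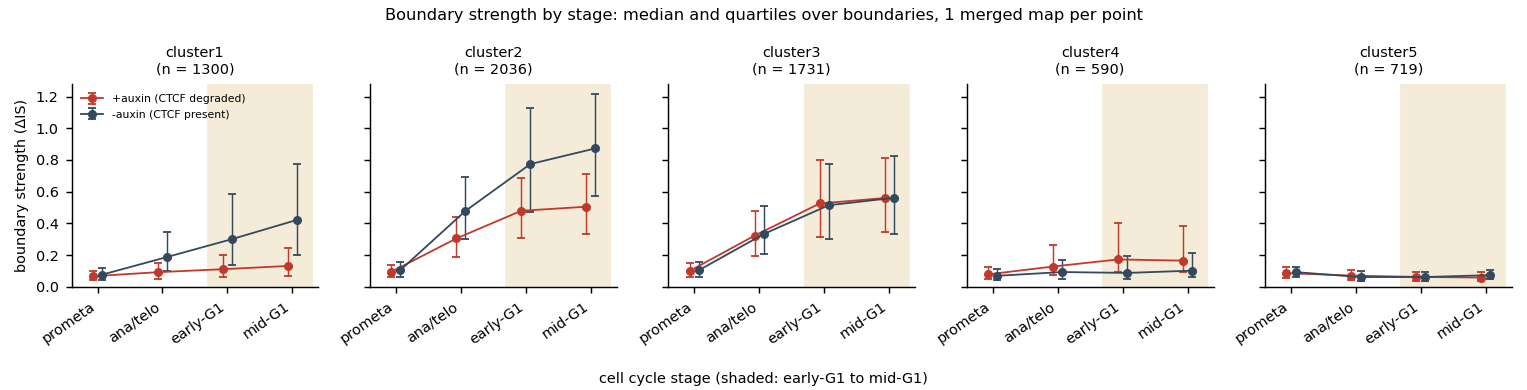
Median boundary strength (ΔIS, y axis) in the 4 cell cycle stages (x axis) for the 5 deposited clusters, with auxin in red and without in dark blue. Bars span the quartiles over boundaries, and each point comes from 1 merged map. In the shaded step cluster1 goes from 0.111 to 0.132 with auxin and from 0.301 to 0.422 without, while cluster3 goes from 0.526 to 0.560 and from 0.515 to 0.561.

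What lies at a boundary went with its change only weakly. Boundaries within 20 kb of an anchor of a structural or dual-function loop changed by 0.042 with auxin (SD 0.050, n = 2460), and those at no loop anchor by 0.093 (SD 0.043, n = 3224). The latter were weaker to begin with, at a median ΔIS of 0.136 in early-G1 against 0.504. Boundaries with a transcription start within 15 kb changed by 0.034 (SD 0.049, n = 2026) and the others by 0.075 (SD 0.040, n = 4350). The changes of the 2 treatments were set side by side in classes of boundary strength. Boundaries were ordered by ΔIS in the mid-G1 -auxin map. That map is also part of the change without auxin, so the classes are not independent of it. The Spearman correlation between the 2 changes, over 1274 to 1276 boundaries per class, was 0.0059 in the weakest 20% and 0.506 in the strongest 20%. In the classes between it was 0.179, 0.383 and 0.521. Over all boundaries it was 0.24. Of the weakest 20% of boundaries, 37.6% were stronger with auxin and 34.8% weaker, compared with 13.5% and 7.22% of the strongest.

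Single loops were named by a rule based on this change, so their values illustrate its extremes and are not tested. They come from loops with a 10 kb summit, called in at least 1 +auxin map and with a strength of 1.5 or more in early-G1 or mid-G1, which leaves 157 structural, 668 dual-function, 1483 CRE and 394 uncategorised loops. Coordinates are those of the 10 kb anchor bins in mm9.

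Among structural loops the largest rise was that of a 650 kb loop on chromosome 5 from chr5:65250001-65260000 to an intron of 1110003E01Rik at chr5:65900001-65910000, and the first printed motif lies in its left anchor. Its strength with auxin went from 0.903 in prometaphase over 1.23 in ana/telophase and 1.396 in early-G1 to 2.24 in mid-G1, and was 0.647, 1.53, 1.350 and 1.41 in the same order without. The rise was 0.68 on the log2 scale with auxin and 0.064 without. A loop of 130 kb joined the starts of Pf4, a platelet chemokine, and Cxcl2, a chemokine that attracts neutrophils, between chr5:91200001-91210000 and chr5:91330001-91340000. It went from 1.65 to 2.51 with auxin and from 2.02 to 2.42 without, so that by mid-G1 both treatments were close. The loop at Prune2 on chromosome 19 rose from 1.80 to 2.84 with auxin but stood at 4.74 and 5.31 without. The largest fall was that of the 240 kb loop on chromosome 14 whose nearby motifs are printed above, between chr14:115200001-115210000 and chr14:115440001-115450000. It stood at 2.53 with auxin and 2.21 without in early-G1, and at 1.78 and 2.13 in mid-G1. The loop from Lrfn1, a synaptic adhesion protein, fell from 1.66 to 1.24 with auxin and went from 1.84 to 1.96 without.

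Among dual-function loops the largest rise joined an exon of Ctse, a cathepsin, to the start of Nucks1, a chromatin-associated protein, over 250 kb (chr1:133550001-133560000 to chr1:133800001-133810000). With auxin it went from 0.927 to 2.40, and without auxin it was at 0.856 and 0.720. A 1670 kb contact between Pfkl, a phosphofructokinase, and Cdc34, a ubiquitin-conjugating enzyme, went from 1.75 to 3.47 with auxin, reaching the mid-G1 level of -auxin cells, 3.45. The largest fall was at the alpha-globin locus. The loop from the start of Hba-x, the embryonic alpha-like globin, to Efcab9 and Stk10 (chr11:32170001-32180000 to chr11:32430001-32440000) went from 2.92 in early-G1 to 1.69 in mid-G1 with auxin, a log2 change of -0.79. Without auxin it was 1.57 and 1.39, so the early-G1 +auxin map stood apart from the other 3. The loop at Peg3, an imprinted zinc finger gene, fell from 2.65 to 1.56 with auxin while it rose from 3.496 to 4.05 without. The loop from Irs2, an insulin receptor substrate, to Cars2 and Ing1 fell from 2.95 to 1.74 with auxin and from 2.11 to 1.75 without.

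The CRE loops with large changes spanned between 640 and 1690 kb. The longest, from Aff3 to Il1rl2, rose from 1.59 to 2.95 with auxin and went from 2.31 to 1.80 without. The loop from Senp7, a SUMO protease, to Tfg (chr16:56070001-56080000 to chr16:56710001-56720000) fell from 3.28 to 1.49 with auxin and rose from 1.96 to 2.34 without. On chromosome 3, which carries a translocation in these cells, a pair of nearly identical contacts of Tmem56 moved in opposite directions with auxin. The one to Gclm, a subunit of the enzyme that starts glutathione synthesis, fell from 3.99 to 1.81, and the one to Dnttip2, with both anchors close by, rose from 2.51 to 3.98. Without auxin each went the other way, from 2.42 to 2.70 and from 2.48 to 2.17. Rprd2 to Txnip, a thioredoxin-binding protein, rose from 0.856 to 1.59 with auxin, but had stood at 1.94 in ana/telophase. In uncategorised loops the range ran from -1.30 to 1.401 on the log2 scale, both at loops with no protein-coding gene at their anchors.

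**Figure D5:**
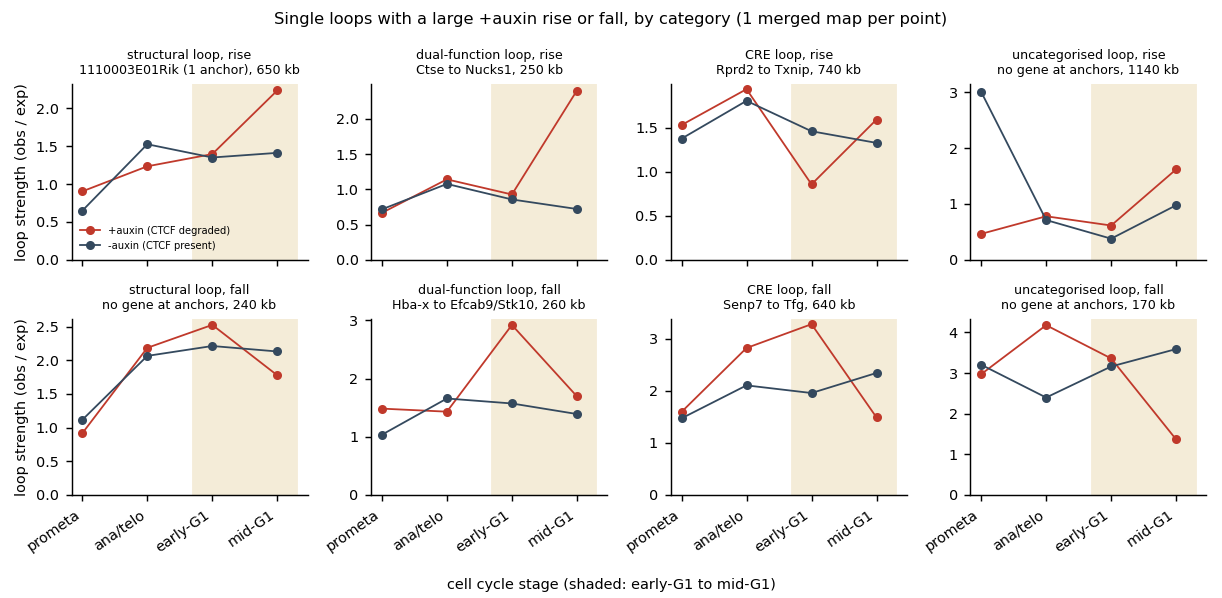
Loop strength (observed over expected contacts, y axis) in the 4 stages (x axis) of 1 loop with a large rise (top) and 1 with a large fall (bottom) from each category between early-G1 and mid-G1 with auxin. Each point is 1 loop in 1 merged map, with auxin in red and without in dark blue. At several of these loops, such as that of Hba-x at 2.92, 1 map stands apart from the others.

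Boundaries were named in the same way from 3421 members of clusters 1 to 4 with a ΔIS of at least 0.3 in either map. The largest rise was in an intron of Exoc4, an exocyst subunit, at chr6:33440001-33450000, from 0.034 to 0.343 with auxin and from 0.051 to 0.265 without. A boundary in Araf, a RAF kinase gene on the X chromosome, rose from 0.062 to 0.304 with auxin and from 0.568 to 0.821 without. One at the start of Cnga2 rose from 0.079 to 0.325 with auxin and from 0.227 to 0.448 without. The 4 largest rises all went up without auxin too, as did 72.8% of all boundaries. The largest fall, in an intron of Dennd1a, was from 0.346 to 0.091 with auxin and from 0.224 to 0.124 without. The other 3 of the 4 largest falls went up without auxin, on the log2 scale by 0.849, 0.097 and 0.062, which is near the share of all boundaries.

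Loops at genes of 3 lists were counted next, with a gene assigned to a loop when its start lies within 15 kb of an anchor midpoint. The loops of 30 erythroid genes (112 loops), which include globins, haem enzymes and red cell transcription factors, had a median log2 change of -0.071 with auxin and -0.0072 without. Of them 9 (8.04%) were stronger with auxin, against 8.74% of all loops, and 16 (14.3%, 8.99 to 22.0%) were weaker, against 8.31%. These loops all have a transcription start at an anchor, and the interval holds the 12.4% of weaker loops found among all CRE loops, and the 9.63% among all dual-function loops, with starts at both anchors. Named by the same filter, the largest falls were those of Hba-a1, which shares the globin loop given above, and of Zfpm1, the GATA1 cofactor FOG1, from 1.83 to 1.10 with auxin and from 1.37 to 1.03 without. A loop at Lyl1, a helix-loop-helix factor, fell from 1.75 to 1.15 with auxin and from 1.73 to 1.44 without, while another at the same gene, over 100 kb, went from 2.55 to 2.89 with auxin and from 3.93 to 4.45 without. Lmo2, a partner of these factors, had a loop to Caprin1 at 2.16 and 2.32 with auxin but 1.20 and 1.12 without. The loop of Tfrc, the transferrin receptor, stood at 2.42 and 2.58.

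Genes of G1 entry and the immediate-early response (34 genes, 125 loops) had a median log2 change of -0.088 with auxin and -0.033 without. The SD with auxin over the 7 chromosomes with enough loops was 0.116, larger than the change, and 2 of them were above 0. Of the loops at these genes 7 (5.60%) were stronger with auxin and 14 (11.2%, 6.79 to 17.9%) weaker, the latter near the background of 8.31%. The 2 neighbouring loops at Klf6, a zinc finger factor, share 1 anchor and went from 1.58 to 2.02 and from 1.62 to 1.91 with auxin. The loop of Cdk4, the G1 kinase, stood at 1.61 and 1.79 with auxin and at 1.39 and 1.14 without. The largest fall was a 1880 kb loop between Cdkn1b, the CDK inhibitor p27, and the histone genes H2afj and Hist4h4, from 5.61 to 3.35 with auxin and from 4.23 to 2.97 without. Loops of Ier2 and Btg2 fell from 3.01 to 1.97 and from 2.56 to 1.79 with auxin. In both, the -auxin values moved less, from 1.62 to 1.352 and from 1.82 to 1.74.

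Developmental genes listed as Polycomb targets (17 genes, 45 loops) had a median log2 change of 0.041 with auxin and 0.079 without. The SD with auxin was 0.042, over only 2 chromosomes with enough loops. Whether these genes are silent or carry Polycomb marks in these cells was not examined. With auxin 8 of their loops (17.8%, 9.29 to 31.3%) were stronger and 2 (4.44%, 1.23 to 14.8%) weaker. The former share lies above the background of 8.74%, but it rests on 8 loops. Its interval treats loops as independent, although many share an anchor, and it holds the 13.1% of structural loops. Of their 3 loops that pass the filter, the one at Hoxc8 went from 2.54 to 2.95 with auxin and from 5.39 to 5.89 without. The loop of Hoxb13 to Atp5g1 stood at 2.14 and 1.99, and the one between the Hoxc cluster and Cbx5, a heterochromatin protein gene, at 2.81 and 2.39.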

How the data were processed

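Reads were processed by the authors with HiC-Pro 2.10.0 on mm9, replicates of a condition were merged, and maps were made with juicer_tools 1.13.02. Boundaries were called with rGMAP 1.4. The deposited boundary strength is a signal, ΔIS, computed by the authors from insulation scores on balanced 10 kb maps within 120 kb of a boundary. For loops the authors deposited a ratio, observed over donut-expected contacts, as a mean of 9 pixels. Sequencing depth behind single values is not given in the tables, so no interval was put on them, and values from merged libraries carry no replicate spread. What part the depth of the maps plays in a change was not tested.

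Here log2(mid-G1 / early-G1) was computed per loop and boundary without pseudocount. Chromosome medians needed at least 10 members. The members, gene lists and tests were chosen with earlier results of these data known. In each category the 3 largest rises and the 3 largest falls were named (4 and 4 for boundaries; at most 3 and 3 per gene list), under the filters given in the text, none on chromosome 18. Of these, 1 structural and 1 CRE loop that fell are not reported here, and the text describes some of the rest. Anchors were annotated with protein-coding genes of GENCODE vM1 on NCBIM37, and no deposited coordinate lay past a chromosome end. Alternatives covered pseudocounts, filters, centring, summit width, size classes, the fold and leaving out chromosome 3, which carries a translocation. Triptolide libraries were not used. The summary code was tested on simulated data: 9 planted shifts were recovered to within 0.025 on the log2 scale. Python 3.11.15, numpy 2.4.6, pandas 2.3.3, scipy 1.17.1 and matplotlib 3.10.9 were used.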

Additional observations from a re-analysis of the deposited data

Results flagged for a closer look

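Among loops of up to 200 kb (n = 7833, all categories together), the early-G1 to mid-G1 step had medians of opposite sign under the 2 treatments. The median log2 change was -0.017 with auxin (SD over chromosomes 0.015, above 0 on 3 of 20 chromosomes) and 0.042 without (SD 0.018, above 0 on 20 of 20). The sign with auxin depends on the summary, since the median strength itself went from 1.308 to 1.311 with auxin, and from 1.61 to 1.65 without. These pooled values mix the categories, and the signs differed within dual-function loops alone, at -0.031 with auxin and 0.024 without. In the same order the medians were 0.027 and 0.147 for structural, 0.028 and 0.064 for uncategorised and -0.066 and -0.043 for CRE loops. The difference between the treatments was not tested, since each map gives 1 value per loop.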

How the results depend on the processing

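No paired analysis was possible because the loop and boundary tables used here hold 1 value per stage and treatment, from merged libraries. For the same reason no library was left out. Of the values recomputed under other settings, 167 stayed within their spread and 29 moved further. Of the 6 that changed sign, 4 came from the first setting below. The first setting was keeping only loops called in a +auxin map, a choice that uses the same maps. The median log2 change was then -0.079 for all loops, -0.094 for dual-function and -0.098 for CRE loops, and turned negative for structural (-0.014) and uncategorised loops (-0.015). By size it was -0.059 for structural, -0.093 for CRE and -0.031 for uncategorised loops of up to 200 kb, and for dual-function loops -0.066 up to 200 kb, -0.142 over 200 to 500 kb and -0.122 over 500 kb. With 10 kb summits only, uncategorised loops over 500 kb changed by 0.120. With a pseudocount of 0.1, cluster1 boundaries changed by 0.125. At a fold of 1.5, 1.92% of all loops were stronger and 1.44% weaker with auxin, 3.68% and 1.695% of structural, 0.801% and 1.128% of dual-function, 0.495% and 1.62% of CRE and 2.47% and 1.14% of uncategorised loops, and 15.3% and 9.77% of boundaries. After centring on the median of all, 9.20% of loops were stronger and 7.83% weaker, and 23.7% and 20.3% of boundaries. Of the 4 size classes tried for dual-function loops, the class over 750 kb alone had a positive median, 0.010 (SD 0.121). The other changes of sign lay within the spread, at 0.0027 for dual-function loops over 500 kb from the ratio of mean strengths and at 0.0097 for cluster4 without chromosome 3. The loop and boundary values come without the depth of the maps. The paper's supplement describes Hi-C processing statistics, which were not used here, and what depth limits was not tested.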

Other observations

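Base composition moved with some of these values. The 2126 boundaries in bins with the lowest GC content (up to 40.6%) changed by a median log2 of 0.096 with auxin (SD over chromosomes 0.068), the 2127 in the middle by 0.077 (SD 0.050) and the 2120 with the highest (from 44.7%) by 0.028 (SD 0.046). Without auxin the medians were 0.266, 0.201 and 0.134. The classes also differed in strength. With auxin the median ΔIS went from 0.127 to 0.140 in the lowest class and from 0.480 to 0.498 in the highest. CRE loops, divided in the same way by the mean GC content of their anchors, changed from the lowest class to the highest by -0.050 (SD 0.041), -0.064 (SD 0.030) and -0.087 (SD 0.033) with auxin. Structural loops changed by 0.043, 0.047 and 0.042 with auxin, and by 0.232, 0.182 and 0.136 without. Whether base composition plays a part in any of these changes was not tested.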
